A study of Mus musculus with 24 samples.

Results

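A set of 3 miRNAs that are abundant in red blood cells, mmu-miR-486, mmu-miR-451 and mmu-miR-144, were followed over 24 arrays of mouse lung RNA. They were chosen by the name each spot carries in the scanner files, as 3 of the 611 mouse miRNAs on the array, with the lower level of miR-486 in c-Raf lungs already known from these data. The members' differences between c-Raf and wild type (WT) lungs are therefore given as a description, with no p, and the number of members called by limma is printed beside the share called among all tested miRNAs, with nothing read from it. Of the 3, miR-486 and miR-451 passed the filter on low values (detected on at least 6 of the 24 arrays), which 120 miRNAs passed, and miR-144 did not.

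The arrays held 100 ng of total RNA each, from lungs of 12 SP-C/c-raf transgenic mice and 12 WT mice aged 4 to 6 months, 6 per sex and genotype. The groups are named M WT and M c-Raf for males, and F WT and F c-Raf for females. In the transgenic animals the promoter of the surfactant protein C gene directs the c-Raf kinase to the alveolar epithelium, a promoter that is not active in blood or vessel cells. Per the labels the cells were laser microdissected from stained frozen sections, and the tissue field reads lung adenocarcinoma for the WT samples as well. The paper has a section on microdissection and also speaks of RNA extracts from lungs, so that the input is not settled here. In bulk RNA of either kind, fewer cells of a type and less RNA per cell cannot be told apart.

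Mir144 and Mir451a are neighbouring hairpins of a single primary transcript that the erythroid factor GATA-1 switches on as red cells mature. The precursor of miR-451 is unusual in being trimmed by an Argonaute protein instead of Dicer. The gene of miR-486 lies within Ank1, which encodes the ankyrin of the red cell membrane, and is also transcribed in skeletal and cardiac muscle. Because red cells keep these miRNAs after they lose the nucleus, the 3 serve as a gauge of blood in a tissue extract.

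RefSeq held mature sequences for 2 of the 3 members. They are shown because seed and neighbourhood set out how the members relate to each other. The capitals mark the seed, bases 2 to 8 counted from the 5′ end, in the mature sequences (GRCm38.p6, plus strand of chromosome 11).

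mmu-miR-451a (chr11:78073186-78073207): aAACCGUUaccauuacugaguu

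mmu-miR-144-3p (chr11:78073047-78073066): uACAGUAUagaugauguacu

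mmu-miR-144-5p (chr11:78073010-78073032): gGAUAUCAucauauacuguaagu

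The name on the array, mmu-miR-144, does not say which arm the probes were made for. The 3 seeds differ from each other, and each occurs in 1 of the 1738 mature mouse sequences of the table, so that no family member shares it there. The 22 bases of miR-451a are 36.4% G or C, and the 20 bases of miR-144-3p are 30% G or C. The hairpin of Mir144 (chr11:78073005-78073070) ends 99 bases before that of Mir451a (chr11:78073170-78073241) begins. No other arm of the member hairpins was on the array.

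Each miRNA was measured by 20 spots, 10 of each of a pair of probes, and no spot was saturated. The brightness of an array, the 75th percentile of its spots for the 27 miRNAs detected on all 24 arrays, ran from 34.9 to 1212 intensity units, with a median of 176 in M WT, 433 in M c-Raf, 265 in F WT and 193 in F c-Raf. Spot intensities were divided by this value, set to no less than 0.01 (the floor, -6.64 on the log2 scale) and summarised by their median. The log2 of that median is called the level below, and a difference of 1 in it is a doubling. Each of the 6 slides carried 1 replicate of each of the 4 groups, always at the same position for a group, so that position and group cannot be told apart. Earlier results had M WT replicate 4 and F WT replicate 5 apart from the other arrays of their groups, and values without both are given where they bear on a result.

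miR-486, which is known to restrain Foxo1, was detected on 22 of 24 arrays and was the only member seen in nearly all lungs. Its level in M WT ran from -3.52 to -1.22 with a median of -2.26, and it was detected on 6 of 6 arrays. In F WT it ran from -3.71 to -2.42 with a median of -3.15, again with detection on 6 of 6 arrays. In M c-Raf it ran from -4.22 to -2.98 with a median of -3.82 and was detected on 5 of 6 arrays, while in F c-Raf it ran from -4.67 to -2.98 with a median of -3.88 and was detected on 5 of 6 arrays. The WT arrays were thus the higher ones in each sex, with overlap. Among males, 5 of 6 M WT arrays lay above every M c-Raf array, and M WT replicate 6 fell inside the c-Raf range. Among females, 2 of 6 F WT arrays lay above every F c-Raf array. The highest M c-Raf value came from replicate 6, the dimmest of the 24 arrays, where the miRNA was not flagged as detected.

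The highest group mean was that of M WT (-2.29 ± 0.77, SD, n = 6), followed by F WT (-3.08 ± 0.46), then M c-Raf (-3.70 ± 0.45), with F c-Raf (-3.88 ± 0.56) the lowest. M c-Raf and F c-Raf, neighbours in that order, differed by 0.18, less than the spread within either group. The step from F WT to M c-Raf was 0.61, more than the SD of either group. The step from M WT to F WT was 0.80, close to the SD of 0.77 in M WT.

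**Figure D1:**
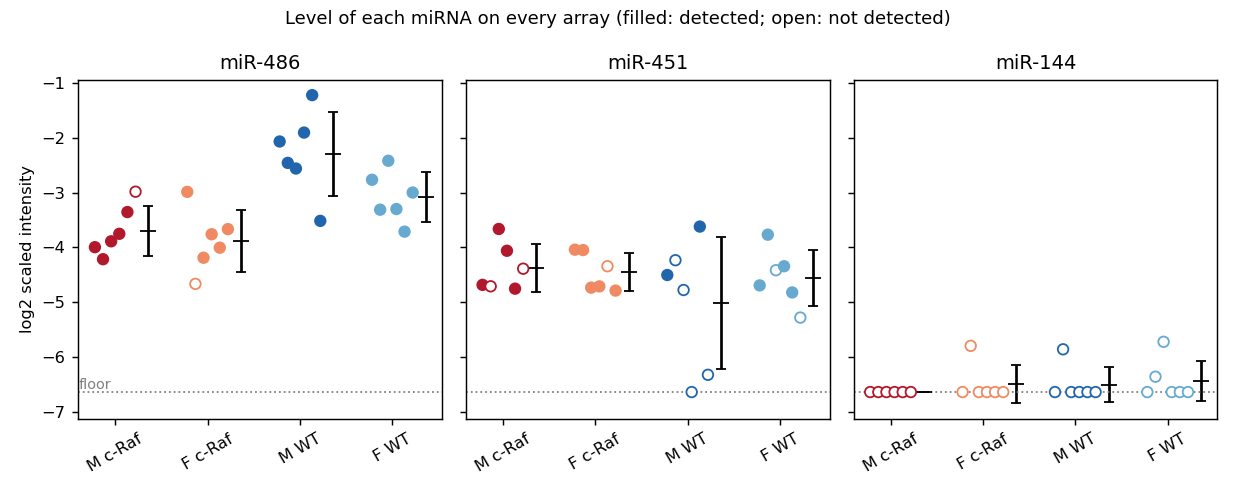
Level (log2 scaled intensity) of miR-486, miR-451 and miR-144 on each of the 24 arrays by group; filled points were flagged as detected, open points were not, bars are mean ± SD of the 6 arrays and the dotted line is the floor. For miR-486 the mean is highest in M WT, and single arrays of the groups overlap. miR-451 overlaps in all 4 groups with 2 low M WT arrays, and miR-144 lies at or near the floor throughout.

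In males miR-486 was lower in c-Raf by -1.41 (SE 0.33), a level 2.66 times lower, on 5 of 6 slides. In females the difference was -0.80 (SE 0.33), 1.74 times lower, on 6 of 6 slides. Over both sexes it was -1.10 (SE 0.23), 2.15 times lower and the lowest of the 120 differences tested, beside a median of 0.09 over all 120. The slide that went the other way in males was slide 6, at 0.53, while the other 5 ran from -2.14 to -1.33. Within the 4 scans the difference over both sexes was -1.16, -0.64, -1.08 and -1.55 for scans 1 to 4, in the same direction in all of them.

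At a limma adjusted p under 0.05, 1 member (miR-486) was called in males, where 2.50% of all tested miRNAs were called, 0 members in females, where 5.00% were called, and 1 member (miR-486) over both sexes, where 18.3% were called. These counts were read from the contrast on which the members were selected and carry no further weight. The call in males was absent in 10 of the 22 alternative settings, among them the deposited table, quantile normalization, no filter and a fit of only the groups compared, and the call over both sexes was absent in 5 of 20. Of the 24 fits that left out 1 array, the one without M WT replicate 4 lost the call in males, where the difference was -1.34 (SE 0.34) and so hardly changed. Without both that array and F WT replicate 5 the difference was -1.34 in males, -0.92 in females and -1.13 when the sexes were joined, and miR-486 was called in males.

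In males the size of the difference depended on the scaling between arrays. The c-Raf arrays of males were the brighter ones by their median, although M c-Raf replicate 6 was the dimmest of the 24 arrays. On unscaled intensities miR-486 ran from 4.42 to 90.0 units in M c-Raf (median 28.4) and from 9.37 to 87.5 units in M WT (median 32.8), so that these medians lay close together. With no scaling the difference in males was -0.23 beside a median of 1.35 over all tested miRNAs, and with the 75th percentile over all spots it was -0.71 beside 1.01. In females the unscaled intensity was the lower one in c-Raf, with a median of 16.3 units in F c-Raf and 35.9 units in F WT, and with no scaling the difference was -1.02 (SE 0.72) beside a median of -0.18. Relative to the median of all tested miRNAs, miR-486 was lower in c-Raf under all 22 settings compared in each sex, by -2.28 to -0.23 in males and by -1.40 to -0.25 in females, with normexp background correction at the small end of both. The 22 include the main setting. They also include fits with the slide or the scan as a block, which cannot change a difference as every slide holds all 4 groups. The floor of 0.001, the filters on detection and the fit of only the groups compared also left the miR-486 difference as it was. The settings are therefore not separate evidence, and all of them restate the contrast on which miR-486 was selected. Under normexp the difference in females itself was above 0, at 0.37, beside a median of 0.62 over all tested miRNAs.

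**Figure D2:**
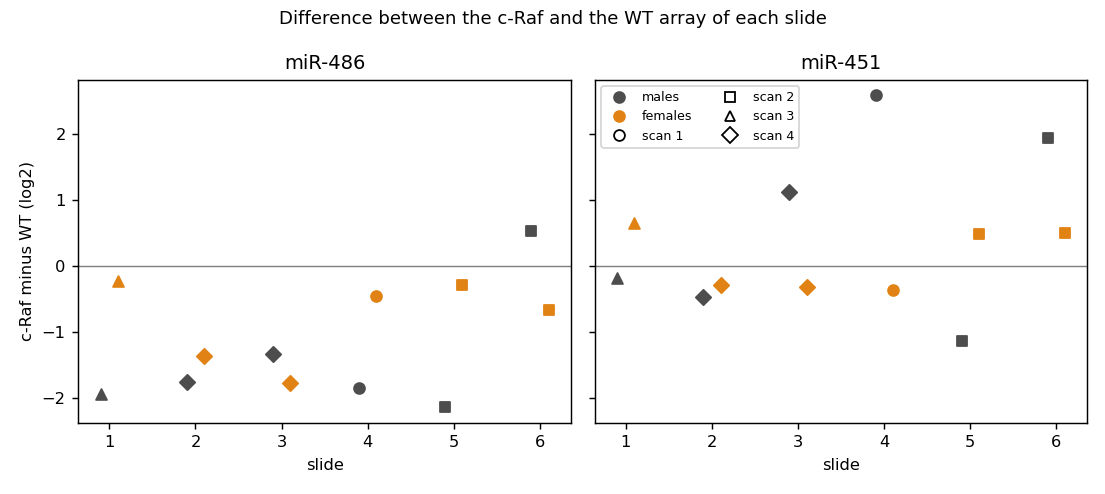
Difference in level (log2) between the c-Raf and the WT array on each of the 6 slides for miR-486 and miR-451, in males and females, with the marker giving the scan. For miR-486, 11 of the 12 points lie below 0; for miR-451 the points lie on both sides.

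The pair of miR-486 probes gave the same direction. The probe with the higher mean level differed by -1.39 in males and -1.02 in females, and the dimmer probe by -1.75 and -1.17.

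miR-451, which shares its transcript with miR-144 and restrains Ywhaz in maturing red cells, was dim and was detected on 15 of 24 arrays (M WT 2, M c-Raf 4, F WT 4, F c-Raf 5). Among males its level ran from -6.64 to -3.62 in M WT (median -4.64) and from -4.75 to -3.66 in M c-Raf (median -4.54). Among females it ran from -5.28 to -3.77 in F WT (median -4.56) and from -4.79 to -4.04 in F c-Raf (median -4.53). The 4 medians lay within a small part of the spread inside any one group, and the groups overlapped. The 2 low M WT arrays were replicate 4, at the floor, and replicate 6, at -6.33, neither of which was flagged as detected. The group mean was highest in M c-Raf (-4.38 ± 0.44, SD, n = 6), followed by F c-Raf (-4.45 ± 0.35), then F WT (-4.56 ± 0.51), with M WT (-5.02 ± 1.20) the lowest, and no neighbours in that order differed by more than the larger of their SDs.

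Against WT the level of miR-451 differed by 0.64 (SE 0.40) in males, by 0.11 (SE 0.40) in females and by 0.38 (SE 0.28) over both sexes, with 3 of 6 slides higher in each sex. Without M WT replicate 4 the value in males was 0.32, since the floor value of that array made up much of the difference. At the level of single probes, the differences over both sexes were 0.22 and 0.45. The sign over both sexes turned with the treatment of dim signals: it was -0.23 with a floor set on each array by its dimmest signal well above background and -0.029 under normexp, beside medians of -0.44 and -0.080 over all tested miRNAs. With detection on 15 of 24 arrays, no direction is read for miR-451.

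miR-144, which restrains the antioxidant regulator Nfe2l2 in red cells, was flagged as detected on 0 of 24 arrays, and 1 of its 480 spots was well above background. It was at the floor on 20 arrays. Unscaled, it ran from -6.18 to 4.94 intensity units, and its highest value relative to the background level was 21.3% of the lowest signal well above background on that array. No fold between groups is given for it, since both sides lay under the background level. The 4 arrays above the floor were all of scan 4. On that scan 8 of 8 arrays were above 0, from 0.26 to 4.94 units, while the highest of the other 16 arrays was 0.09 units. The lowest signal well above background was 19.0 to 23.2 units on scan 4, against 6.77 to 8.98 on scan 1. The highest such signal, 27.0 units, was that of M WT replicate 5 on scan 2, the array with the lowest value of miR-144 (-6.18 units), so that a high limit of detection went with values of either sign. The part of the scan in these values was not tested.

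**Figure D3:**
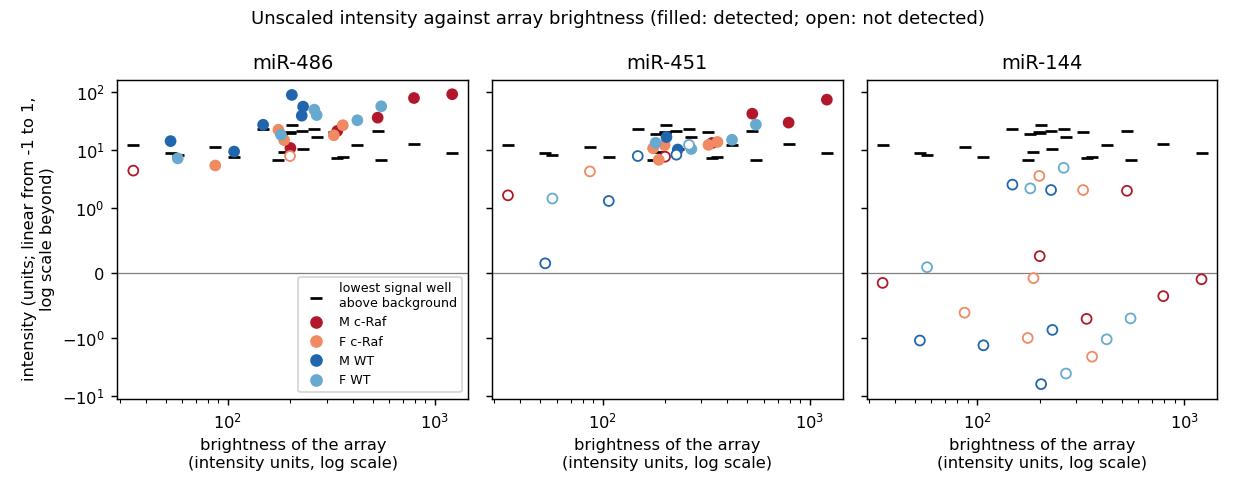
Unscaled intensity of miR-486, miR-451 and miR-144 against the brightness of each array (log axis; the intensity axis is linear between -1 and 1 and logarithmic beyond), with the lowest signal well above background of each array as a dash. Detected arrays of miR-486 and miR-451 lie on both sides of the dashes. Among those under it are miR-486 in F c-Raf replicate 5 (5.41 units, dash at 11.3) and miR-451 in M WT replicate 5 (16.6 units, dash at 27.0). Every value of miR-144 is under the dash of its array.

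The ratio of miR-486 to miR-451 on the same array does not depend on the scaling between arrays. It compares different probes, so that its value cannot be read. Its change between groups is only described, since it includes the miR-486 difference on which the members were selected. Ratios of other pairs of miRNAs were not set beside it. In males the log2 ratio ran from 1.78 to 6.55 on the M WT arrays (median 2.42) and from -0.23 to 1.41 on the M c-Raf arrays (median 0.59). In females it ran from 0.46 to 2.29 on the F WT arrays (median 1.52) and from -0.62 to 1.12 on the F c-Raf arrays (median 0.75). All 6 M WT arrays were above all 6 M c-Raf arrays, and in females the groups overlapped, but miR-451 was not detected on 4 of the 6 M WT arrays, whose ratios therefore divide by a signal not above background. With such arrays included, the means differed by -2.35 in males and -0.90 in females, and the ratio was lower in c-Raf on 6 of 6 slides in each sex. The highest value, 6.55, belonged to M WT replicate 4, and without it the difference in males was -1.65. On the 14 arrays with both miRNAs detected, the 2 of M WT had ratios of 2.40 and 2.44 and the 4 of M c-Raf ran from -0.23 to 1.40, and the difference was -1.88 in males and -0.22 in females. The difference in females was therefore small where both could be detected, and in males it rested on few WT arrays.

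**Figure D4:**
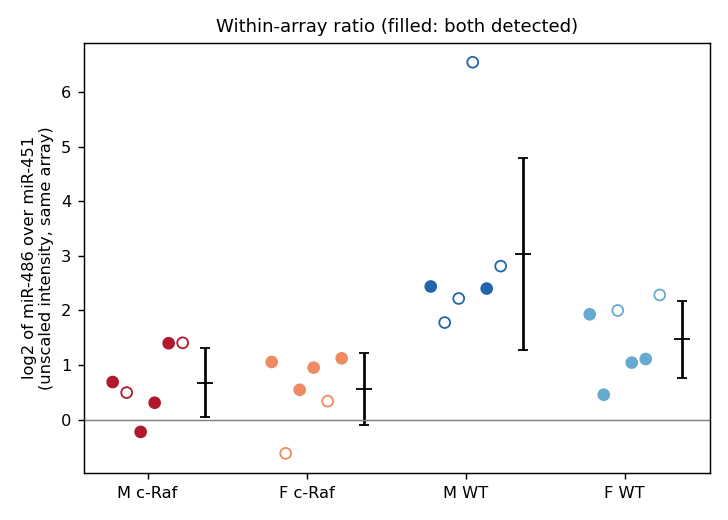
Log2 ratio of the unscaled intensity of miR-486 to that of miR-451 on each array by group, with mean ± SD; filled points have both miRNAs detected. The M WT points lie at 1.78 or above, over the highest M c-Raf point at 1.41, but 4 of the 6 are open.

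Between the sexes neither member passed the test. Within WT, miR-486 was higher in males by 0.80 (SE 0.33, limma adjusted p = 0.496), on 4 of 6 slides, and miR-451 differed by -0.46 (SE 0.40, adjusted p = 0.608). In that comparison 0 of the 120 miRNAs were called (0%), 11 had an unadjusted p under 0.05, and the methods' test passed 0. The comparison shares its M WT arrays with the one on which miR-486 was selected. Within c-Raf, miR-486 differed by 0.18 (SE 0.33, adjusted p = 0.992) and miR-451 by 0.07 (SE 0.40, adjusted p = 0.992), where 2.50% of the tested miRNAs were called. The c-Raf effect in males minus that in females was -0.62 (SE 0.46, adjusted p = 0.872) for miR-486 and 0.53 (SE 0.56, adjusted p = 0.872) for miR-451, with 0 of 120 miRNAs called (0%) by limma and 5 at an unadjusted p under 0.05. The 95% interval of that difference for miR-486, -1.57 to 0.34, holds both an equal effect in the sexes and a larger one in males. That interval and its p come from the c-Raf differences on which miR-486 was selected, so they are given as a description. The comparison within c-Raf also shares its arrays with those differences.

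Whether the members rose and fell together over single animals was read from deviations from the group means over the 24 arrays, in a family of 6 relations (the 3 pairs and each member against log2 brightness). For miR-486 and miR-451 Pearson's r was 0.28 (permutation p = 0.181, adjusted 0.362) and Spearman's rho was 0.14 (permutation p = 0.523, adjusted 0.804). Without the 2 arrays farthest from the median of miR-451 r was 0.17, and with the slide means also removed it was 0.44 (permutation, adjusted p = 0.205). Within scan 2 it was 0.85 and within scan 4 it was -0.31, over 8 arrays each, and scans 1 and 3 held 4 arrays each. Within the groups of 6 arrays r was 0.52 for M WT, -0.03 for M c-Raf, -0.06 for F WT and 0.02 for F c-Raf. On unscaled intensities r was 0.90 (permutation, adjusted p = 2e-05), but there each of the pair also followed brightness, with r of 0.89 for miR-486 and 0.92 for miR-451.

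miR-451 and miR-144, the products of a single transcript, gave r of 0.30 (permutation p = 0.149, adjusted 0.362) and rho of 0.33 (permutation p = 0.113, adjusted 0.677), with miR-144 at the floor on most arrays. Without the 2 arrays farthest from the median of miR-144 r was 0.35, and within scan 4, the only scan where miR-144 left the floor, it was 0.30. For miR-486 and miR-144 r was -0.07 (permutation p = 0.733, adjusted 0.880), rho was -0.05 (permutation p = 0.804, adjusted 0.804) and r without the 2 farthest arrays was -0.09. With the slide means also removed, r was 0.12 for miR-451 and miR-144 and 0.25 for miR-486 and miR-144, so that the sign of the latter turned. Against log2 brightness, r was -0.16 for miR-486 (permutation p = 0.469, adjusted 0.704) with rho of -0.08 (permutation p = 0.706, adjusted 0.804), 0.33 for miR-451 (permutation p = 0.118, adjusted 0.362) with rho of 0.25 (permutation p = 0.244, adjusted 0.731), and 0.01 for miR-144 (permutation p = 0.972, adjusted 0.972) with rho of -0.09 (permutation p = 0.665, adjusted 0.804). Without the 2 arrays farthest in brightness the 3 values of r were 0.05, 0.42 and 0.01, and with the slide means also removed they were -0.36, 0.24 and 0.01. On scans 2 and 4 they were -0.09 and 0.64 for miR-486 and 0.11 and 0.11 for miR-451, and -0.32 on scan 4 for miR-144.

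The miRNAs whose levels over the 24 arrays were most like those of miR-486 were miR-214 (rho 0.80), miR-193b (0.78), miR-92a (0.76), let-7b (0.65) and miR-455 (0.63). Nearest to miR-451 were miR-199a-3p (rho 0.62), miR-126-3p (0.58), let-7g (0.53), miR-199b* (0.52) and miR-107 (0.48). The members were not among each other's nearest: the rho between miR-486 and miR-451 was -0.01, which ranked miR-451 in place 53 of the other miRNAs for miR-486. These values describe shared arrays, with group differences and scaling included, and were given no test.

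Other miRNAs that red cells and their precursors hold in quantity were set beside miR-486. Of 11 listed, 9 were detected on any array and 7 were tested. Over both sexes 2 of the 7 were called higher in c-Raf, miR-16 by 0.93 (SE 0.27) and miR-106b by 0.56 (SE 0.19). Called lower were 0 of the 7, while 15 of all 120 were called higher and 7 lower. By sign alone 6 of the 7 lay above 0, as did 66 of the 120, and the median difference was 0.22 beside 0.09 over all 120. miR-16 was detected on 12 arrays and miR-106b on 10, each on 1 of 6 in M WT. Their M WT means, -6.12 and -6.02, lay near the floor of -6.64, so that floor values enter both differences. Both are also made in most dividing cells. In males and in females taken apart, 0 of the 7 were called, where 2.50% and 5.00% of all tested miRNAs were called. Of the 7 tested, miR-92a alone had a difference below 0 over both sexes, at -0.32 (SE 0.14), and it did not pass the test. The summed level of the 11, on the linear scaled scale, ran from 2.36 to 3.05 for M WT, 2.44 to 3.21 for M c-Raf, 2.10 to 2.87 for F WT and 2.03 to 3.04 for F c-Raf, so that the groups overlapped. That sum was carried mainly by miR-15b, miR-22 and miR-92a, with M WT means of -0.10, -0.45 and -0.64. The next of the list in M WT was miR-15a at -3.37. The overlap therefore says little about the dimmer miRNAs of the list.

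Since miR-486 is also a muscle miRNA, markers of striated muscle were set beside it. Of 7 listed, miR-133a and miR-133b were detected, on 14 and 18 arrays, and miR-1, miR-206, miR-208a, miR-208b and miR-499 were detected on 0 arrays. The differences in c-Raf over both sexes were -0.57 (SE 0.38) for miR-133a and -0.88 (SE 0.37) for miR-133b, neither of which was called. The summed level of the 7 ran from 0.127 to 0.185 for M WT (median 0.161), 0.070 to 0.268 for M c-Raf (median 0.119), 0.0740 to 0.202 for F WT (median 0.164) and 0.0914 to 0.131 for F c-Raf (median 0.0985). The muscle miRNAs detected on 0 arrays mostly entered this sum at or near the floor. The part of muscle in the miR-486 difference was not tested. The smooth muscle miRNAs miR-143 and miR-145 were each detected on 3 arrays, too few to be tested.

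Among markers of other lung cells, the endothelial miR-126-3p was called higher in c-Raf by 0.75 (SE 0.21) over both sexes. The 2 listed endothelial miRNAs summed to 0.0740 to 0.324 for M WT, 0.198 to 0.459 for M c-Raf, 0.223 to 0.321 for F WT and 0.286 to 0.519 for F c-Raf. Of 6 epithelial miRNAs 5 were tested and 3 were called higher, miR-200a by 0.73 (SE 0.21), miR-200b by 0.75 (SE 0.26) and miR-429 by 0.73 (SE 0.20). Over both sexes 18.3% of all 120 were called, 15 higher and 7 lower. miR-200c (0.23, SE 0.19) and miR-375 (0.25, SE 0.27) were not called. miR-200b was detected on 24 arrays, but miR-200a on 11 (0 in M WT) and miR-429 on 13 (1 in M WT). The summed level of the 6 ran from 0.621 to 1.41 for M WT, 0.704 to 2.02 for M c-Raf, 0.862 to 1.66 for F WT and 1.20 to 1.93 for F c-Raf. Of 5 leukocyte miRNAs 3 were tested and 0 were called. The granulocyte miRNA miR-223 had a difference of 0.66 (SE 0.25) and the lymphocyte miRNA miR-150 one of -0.38 (SE 0.33), miR-142-3p and miR-142-5p were detected on 0 arrays, and the summed level of the 5 ran from 0.0687 to 0.153 for M WT, 0.0751 to 0.207 for M c-Raf, 0.0737 to 0.0904 for F WT and 0.0734 to 0.122 for F c-Raf. The leukocyte miRNAs detected on 0 arrays entered that sum at or near the floor. Detection was on 12 arrays for miR-223 (1 in M WT) and on 7 for miR-150 (1 in M WT). Their group means ran from -5.39 to -4.50 and from -6.21 to -5.69, so that both differences rest on dim values. In males and in females taken apart, 0 miRNAs of the endothelial, epithelial and leukocyte lists were called, where 2.50% and 5.00% of all tested miRNAs were called. The part of these cells in the difference of miR-486 was not tested.

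**Figure D5:**
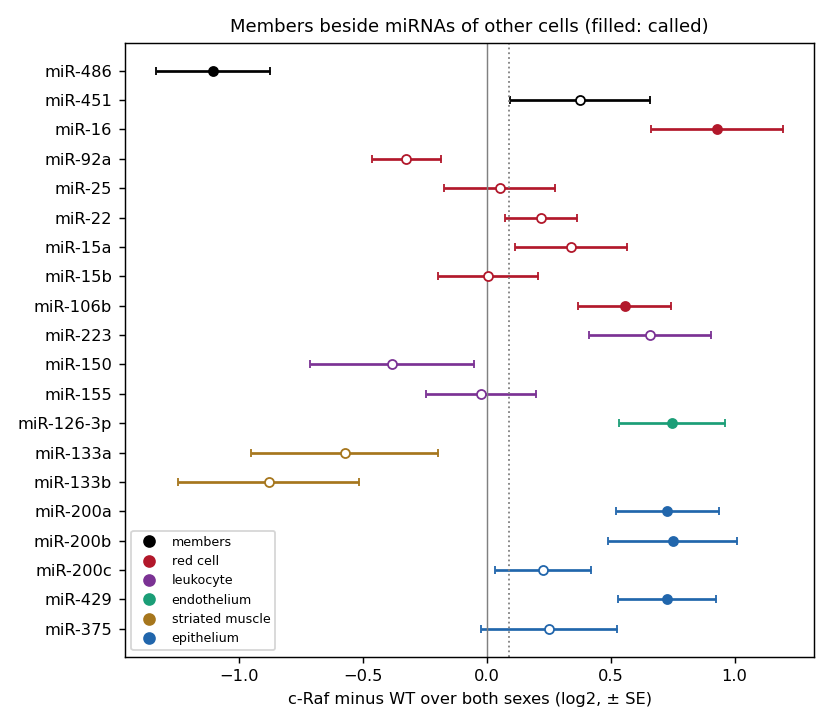
Difference in level between c-Raf and WT over both sexes (log2, ± SE) for miR-486 and miR-451 and for the tested miRNAs of the red cell, leukocyte, endothelial, striated muscle and epithelial lists; filled points were called at a limma adjusted p under 0.05, and the dotted line is the median of all 120. miR-486 lies lowest at -1.10. Above 0 lie 6 of the 7 other red cell miRNAs, as do 66 of all 120, some of the 6 by less than their SE. miR-451 lies at 0.38 (SE 0.28), and no direction is read for it.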

How the data were processed

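Single-colour Cy3 arrays were scanned and the spots quantified by the authors with Agilent Feature Extraction (10.7.3.1 per the file headers, 8.1.3 in the submitters' processing notes). The deposited intensity of each spot was background-subtracted and not scaled between arrays. The detection flag, a 0 or 1 score per miRNA, was used as deposited. The authors also deposited a table of scaled intensity values, used as an alternative. It holds miR-486 and miR-451.

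Spots were scaled, floored at 0.01, summarised and logged as described above. limma 3.58.1 in R 4.3.3 fitted 1 mean per group over 24 arrays and 120 miRNAs, with Benjamini-Hochberg adjustment within each comparison, after a check on simulated data. Correlations used 100000 permutations, two-sided (scipy 1.17.1). Samples were 1 animal each and were grouped by the labels. The members and the lists of other miRNAs were chosen with earlier results of these data known. Named besides the members are the 5 most similar miRNAs and, from each list, the called miRNAs or else the 2 with the highest mean level, plus markers at 0 detection. The number of arrays limits the precision. Sequences came from RefSeq (GRCm38.p6). The array design is on another build, so no coordinates were read from it. Alternatives covered scaling, background correction, floors, filters, blocks and left-out arrays. Subtracting the signal of undetected miRNAs and leaving out 2 arrays that stood apart or 3 dim arrays were chosen after seeing the data.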

Additional observations from a re-analysis of the deposited data

Results flagged for a closer look

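Of the 12 combinations of 3 miRNAs and 4 groups, 11 had any spread between arrays, and 3 of them held an array far from the other 5 of its group. All 3 concern miR-144, which was detected on no array and was at the floor on 20 of 24. Where values vary freely, about 5% of groups hold such an array by chance. That rate does not apply here, since any value above the floor stands apart when the other 5 are at it. The level was -5.80 in F c-Raf replicate 2 and -5.86 in M WT replicate 2, where the other 5 arrays of each group were at the floor of -6.64, and -5.73 in F WT replicate 3, where the other 5 ran from -6.64 to -6.36. The 3 arrays belong to scan 4, and the part of the scan was not tested.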

How the results depend on the processing

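The direction of the c-Raf differences of miR-486 held under all alternatives except normexp in females, and its calls did not. Some of the alternatives, such as blocks and filters, leave that difference unchanged. The replicate number was the slide on all 24 arrays, so that the replicate block is a slide block. Same-numbered arrays did not all deviate together (23 of 36 pairs correlated above 0.1, median 0.36, lowest -0.42). Because each slide held 1 array of each group, the block could change the SE and not the difference (-1.10, SE 0.24, for miR-486 over both sexes). The block changed no call of a member. The signal over background limits miR-451, detected on 15 arrays, and miR-144, detected on 0. With a floor of 0.1 all arrays of miR-451 were at the floor, and it was given no value. The deposited table was used for miR-486 and miR-451. The within-scan values have no test, and the causes of the changes below were not tested.

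Under the 75th percentile over all non-control spots, the deposited table and no scaling, miR-486 in males was -0.71, -0.69 and -0.23 and miR-451 in males was 1.58, 1.67 and 1.67 (median of all tested 1.01, 1.02 and 1.35). The effect in males minus that in females for miR-486 was 0.048 in the deposited table and 0.79 with no scaling. With the total gene signal miR-486 was -2.07 in males, -1.49 in females and -1.78 for the sexes joined. Under normexp miR-486 was 0.37 in females, -0.32 over both sexes and -0.77 for males minus females within c-Raf, while miR-451 was -0.68 in males, -1.30 for the difference between the sexes of the c-Raf effect, 0.47 for males minus females within WT and -0.83 within c-Raf. With a floor set on each array by its dimmest signal well above background (background floor) miR-451 was -0.36 in males, -0.26 for the difference between the effects and 0.47 for the sexes within WT. For the sexes within c-Raf, array weights gave miR-486 -0.037, and leaving out outlier spots gave miR-451 -0.055.

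Within scans, miR-486 was -0.80 in males on scan 2 and -1.56 in females on scan 4. Its effect in males minus that in females was -1.39 on scan 1, -1.71 on scan 3 and 0.019 on scan 4. For the sexes it was 1.40 within WT on scan 1 and -1.01 within c-Raf on scan 3. miR-451 in males was 2.58 on scan 1 and -0.18 on scan 3, and over both sexes 1.11 on scan 1. Its difference between the effects was 2.95 on scan 1, -0.084 on scan 2 and -0.83 on scan 3, and its sex difference was -2.30, 0.079 and 0.19 within WT on scans 1 to 3, and -0.0050 and -0.64 within c-Raf on scans 2 and 3.

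In males 0 members were called under the 75th percentile over all spots, the deposited table, the background floor, no scaling, normexp, quantile normalization, the total gene signal, no filter, a fit of only the groups compared and the methods' test. Over both sexes 0 were called under the first 5 of these. In females 1 was called with the mean of log2 spots.

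The correlations changed most. For miR-486 with miR-451, r was 0.73 with the percentile over all spots, 0.90 with no scaling, 0.96 under normexp and 0.68 with the background floor. For miR-486 with miR-144 it was 0.058 under quantile normalization, 0.047 with no scaling, 0.95 under normexp, 0.62 with the background floor and 0.25 with the replicate block. For miR-451 with miR-144 it was -0.028 with the percentile over all spots, 0.99 under normexp and 0.88 with the background floor. With brightness, miR-486 had 0.73 with the percentile over all spots, 0.13 under quantile normalization, 0.89 with no scaling, -0.85 under normexp, 0.00035 with the mean of log2 spots and -0.55 with the background floor. In that order without the mean of log2 spots, miR-451 had 0.86, 0.69, 0.92, -0.89 and -0.79. miR-144 had -0.91 under normexp, -0.48 with the mean of log2 spots and -0.85 with the background floor.

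Leaving out 1 array at a time, the members called in males ran from 0 (without M WT replicate 4) to 1. miR-451 for the sexes within c-Raf ran from -0.075 to 0.15, and was below 0 without replicate 3 of M c-Raf and without replicate 6 of F c-Raf. The correlation of miR-486 with miR-144 ran from -0.31 to 0.16, and those with brightness from -0.24 to 0.061 for miR-486 and from -0.067 to 0.050 for miR-144. No leave-one-out correlation passed the test, the lowest adjusted p being 0.168.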
